A study of Mus musculus with 12 samples.

Results

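The response of collecting duct cells to raised salt was followed in the 6 libraries of a 12-library series that received no mifepristone. The cells were IMCD3, an epithelial line from mouse kidney inner medulla, where the collecting duct ends, in its subclone 53a. The line carries a dominant-negative mutant of a kidney tubule transcription factor that mifepristone switches on, as known of the study, so the cells described here carry the switch but did not receive the drug. A group of 3 libraries (A, B and C) came from cells given vehicle alone, and another group of 3 from cells given vehicle and 100 mM added NaCl. Growth was in low-glucose medium with serum, and poly(A) RNA was sequenced. A single subclone limits the model, and the length of the exposure to salt is not given in the sources used here. All 14044 expressed genes of the 48034 in the deposited table were examined, an expressed gene being one that reached 1 FPKM (fragments scaled to transcript length and to library depth) in at least 3 of the 12 libraries.

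Cells of the renal inner medulla live in a fluid whose salt and urea concentrations rise when urine is concentrated. Raised NaCl draws water out of a cell and concentrates the ions inside it. Cells recover volume by importing salt, and over hours they replace the ions with small organic osmolytes such as sorbitol, betaine, myo-inositol, taurine and glycerophosphocholine. NFAT5 (also called TonEBP), a transcription factor of the NFAT and NF-kB family, switches on the carriers and enzymes for these osmolytes and some chaperones by binding a short element called TonE.

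The reads recovered from the deposited values summed to 43440230, 44003518 and 47330507 in the vehicle libraries and to 45586912, 45508867 and 48176990 in the NaCl libraries. Across all genes tested, the first principal component held 86.4% of the variance and separated the groups. Libraries of 1 group correlated at 0.994 to 0.997 and libraries of different groups at 0.962 to 0.968 (Pearson's r over genes, which are not independent replicates). Vehicle A stood apart from vehicle B and C on the second component, which held 6.0%. Its deviation from the group mean correlated with gene length at a Spearman rho of -0.45 over genes, against 0.27 and 0.36 for vehicle B and C. Nothing in the labels says that the libraries came from separate cultures, so the p-values cover only library-to-library spread, perhaps a technical one.

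Epithelial markers matched the label and markers of mature collecting duct cells mostly did not. All 7 epithelial markers passed the expression filter, and Krt18 and Cdh16 averaged 273 and 188 FPKM without NaCl. Of 11 principal cell markers, Hsd11b2 alone passed, at 1.56 ± 0.0427 FPKM (SD, n = 3), and Aqp2, the vasopressin-regulated water channel, had 0 FPKM in each vehicle library and at most 1 read in any library. Of 6 intercalated cell markers, Slc26a4 alone passed the filter, through the mifepristone libraries. It had 22 reads over the 3 vehicle libraries and 11 over the 3 NaCl libraries. The 6 markers summed to 0.112 to 0.123 FPKM without NaCl and 0.0399 to 0.121 FPKM with it. None of the 4 endothelial and 5 immune markers passed, and their summed levels were 0.0272 to 0.0379 and 0.0671 to 0.104 FPKM without NaCl against 0.231 to 0.295 and 0.315 to 0.392 FPKM with it. Ptprc, the leukocyte antigen CD45, made up most of the immune sum at 0.296 FPKM with NaCl. In these bulk libraries a change in the share of cells that express a gene and a change in its RNA per cell cannot be told apart.

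The salt response was broad, mostly of modest size, and led by rises. By limma on log2(FPKM + 0.5), 56.7% of the 14044 genes were called at an adjusted p under 0.05, 25.2% higher with NaCl and 31.5% lower, with a median change over all genes of -0.02. The large changes on this scale mostly went up: 384 genes (2.73%) rose and 180 (1.28%) fell by at least 2-fold. By at least 4-fold 79 rose and 12 fell, and by at least 16-fold 15 rose and 0 fell, on the same scale. Without vehicle A, the counts at 2-fold were 375 and 176. The added 0.5 limits both the measured rise and the measured fall of a gene at a low level, so fewer of either reach these folds. With 0.1 added in place of 0.5, 520 genes rose and 306 fell by at least 2-fold. The authors' deposited table gives 7682 of the same genes an adjusted p under 0.05, and 7561 of those were also called here, all in the same direction. Unless a tool is named, log2 fold changes, their standard errors (SE) and Benjamini-Hochberg adjusted p-values below come from the limma fit, and a list of genes is described by its count of called members and its median, to be read against 25.2% higher, 31.5% lower and -0.02 over all genes.

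**Figure D1:**
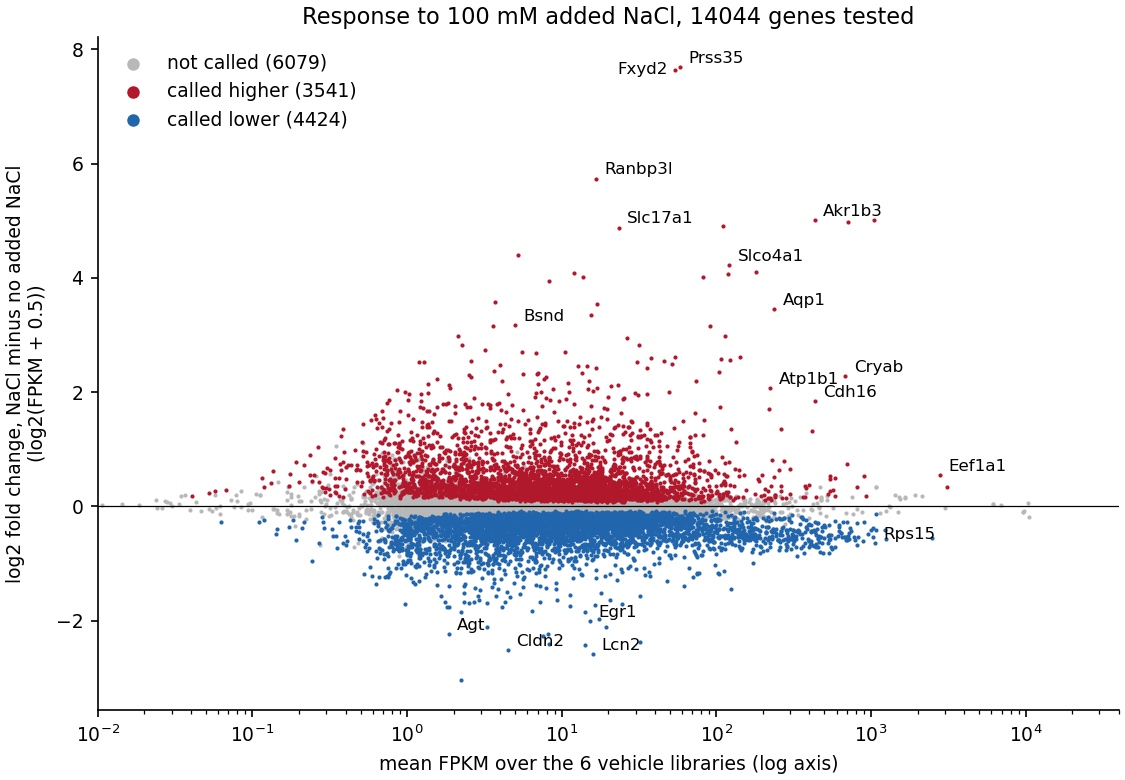
Log2 fold change with 100 mM added NaCl (y axis, on the log2(FPKM + 0.5) scale) against mean FPKM over the 6 vehicle libraries (x axis, log scale), 1 point per tested gene. Of 14044 genes, 3541 were called higher (red), 4424 lower (blue) and 6079 neither (grey); the rises reach 7.68 (Prss35), while the falls end at -3.03 (8430408G22Rik).

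The RefSeq promoters of the tested genes were searched for TonE, because NFAT5 acts by binding this element. A match to the consensus does not by itself show that NFAT5 binds there. The 250 bases before each transcription start were read on both strands for the 11-base consensus of TonE by its name. The element was present in 4.3% of 32851 promoters (GRCm38.p6). Of 8793 tested genes with a promoter in the table, 4.0% held it. The share was 4.8% of 2451 genes called higher, 10.3% of 242 genes that rose at least 2-fold and 16.1% of 56 genes that rose at least 4-fold. It was 3.5% of 2736 genes called lower and 4.4% of 113 genes that fell at least 2-fold. These shares are descriptions, and genes with many promoters in the table have more chances to hold a match. The mean number of promoters per gene was 1.28 over all tested genes with a promoter. It was 1.38 for rises of at least 2-fold, 1.59 for rises of at least 4-fold and 1.19 for falls of at least 2-fold. The part of this imbalance in the shares was not tested. The 9 matching genes that rose at least 4-fold were Slc17a1, Slc6a12, Rnf183, Gm567, 1700016C15Rik, Dio1, Nupr1, Hif1a and Gucy2g. Windows around the match are shown for 6 of them, 5′ to 3′ on the strand of the gene, with the match in capitals; where the match lies on the opposite strand, the capitals are its reverse complement.
Slc6a12, chr6:121342479-121342529, plus strand: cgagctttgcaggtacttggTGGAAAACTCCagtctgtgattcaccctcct
Slc17a1, chr13:23868816-23868866, plus strand: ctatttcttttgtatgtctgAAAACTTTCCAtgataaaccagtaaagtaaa
Rnf183, chr4:62435251-62435284, minus strand: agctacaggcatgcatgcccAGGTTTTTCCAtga
Dio1, chr4:107307262-107307312, minus strand: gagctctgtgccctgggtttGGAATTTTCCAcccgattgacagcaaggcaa
Hif1a, chr12:73907617-73907656, plus strand: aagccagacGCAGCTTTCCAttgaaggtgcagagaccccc
Nupr1, chr7:126625661-126625711, minus strand: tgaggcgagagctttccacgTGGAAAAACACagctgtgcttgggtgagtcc
The Slc6a12 match began 75 bases before the start and read on the strand of the gene, and the Rnf183 match ended 4 bases before it and read on the other strand. The Nupr1 window holds another match, on the other strand, within the left flank shown. Nupr1, a stress-induced chromatin protein, went from 35.5 to 210 FPKM (log2 fold change 2.55), and Hif1a, the oxygen-regulated transcription factor subunit, from 34.1 to 175 FPKM (2.34). Dio1, a thyroid hormone deiodinase, went from 0.185 to 4.35 FPKM (2.82). Akr1b3, Fxyd2 and Cryab have no entry in the promoter table.

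Most tested genes of organic osmolyte transport and metabolism rose, and a few fell. Of 17 tested genes of osmolyte transport and metabolism, 12 were higher and 4 lower, with a median of 0.63 (11 and 4 without vehicle A). Akr1b3, the aldose reductase that makes sorbitol from glucose, was at 28.0, 24.2 and 24.5 FPKM without NaCl and at 865, 795 and 860 FPKM with it. The groups are far apart, with a log2 fold change of 5.01 ± 0.0828 (SE; limma, adjusted p = 6.54e-12). The processed pseudogenes Gm6736 and Gm12138, noticed after their values were seen, moved from 62.4 to 2031 and from 43.6 to 1385 FPKM, and reads of near-identical copies cannot be told apart here. Sord, which turns sorbitol into fructose, fell from 5.0 to 2.72 FPKM (log2 fold change -0.77).

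Slc6a12, Chdh and Pnpla6, genes of betaine and glycerophosphocholine supply, rose, and the phosphodiesterases tested moved both ways. Slc6a12, the betaine carrier, had 6 reads over the 3 vehicle libraries and 4333 over the 3 NaCl libraries, a depth-scaled ratio of 699 with a 95% counting interval of 321 to 1910. Its FPKM values were 0, 0.0293 and 0.0135 without NaCl and 9.54, 10.3 and 11.2 with it. Chdh, which makes betaine from choline in mitochondria, was at 7.55, 8.34 and 9.16 FPKM without NaCl and at 36.7, 38.6 and 38.2 with it (log2 fold change 2.12). Both genes were thus higher in every NaCl library than in any vehicle library, and groups did not overlap, in either direction, for 67.9% of all genes. Pnpla6, the phospholipase that releases glycerophosphocholine, rose from 9.46 to 25.6 FPKM (1.39). Gdpd5 and Gdpd1, phosphodiesterases of the glycerophosphodiester family, fell by 0.85 and 1.02 on the log2 scale, and Gpcpd1, another such enzyme, rose by 0.16. The Gpcpd1 value was not called without vehicle A or B or without NaCl A, B or C, at 0.15 to 0.17.

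Inositol and amino acid osmolytes followed with smaller changes. Slc5a3, the sodium and myo-inositol cotransporter, was at 5.87, 6.06 and 6.02 FPKM without NaCl and 24.8, 26.1 and 26.3 with it (log2 fold change 2.02). Isyna1, which makes inositol phosphate from glucose phosphate, rose from 52.3 to 97.5 FPKM (0.89). The inositol monophosphatases split, with Impa1 higher by 0.30 and Impa2 lower at -0.71. Slc6a6, the taurine carrier, rose by 1.25, and Slc38a2, a sodium-coupled carrier of small neutral amino acids, rose by 0.63. Among 18 amino acid transporters 7 were higher and 7 lower, and Slc7a6, an exchanger of basic and neutral amino acids, rose most, from 25.9 to 26.3 FPKM in the vehicle libraries to 118 to 124 FPKM in the NaCl libraries (2.19 ± 0.0348). Slc1a5, a glutamine carrier, fell from 14.8 to 9.85 FPKM.

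**Figure D2:**
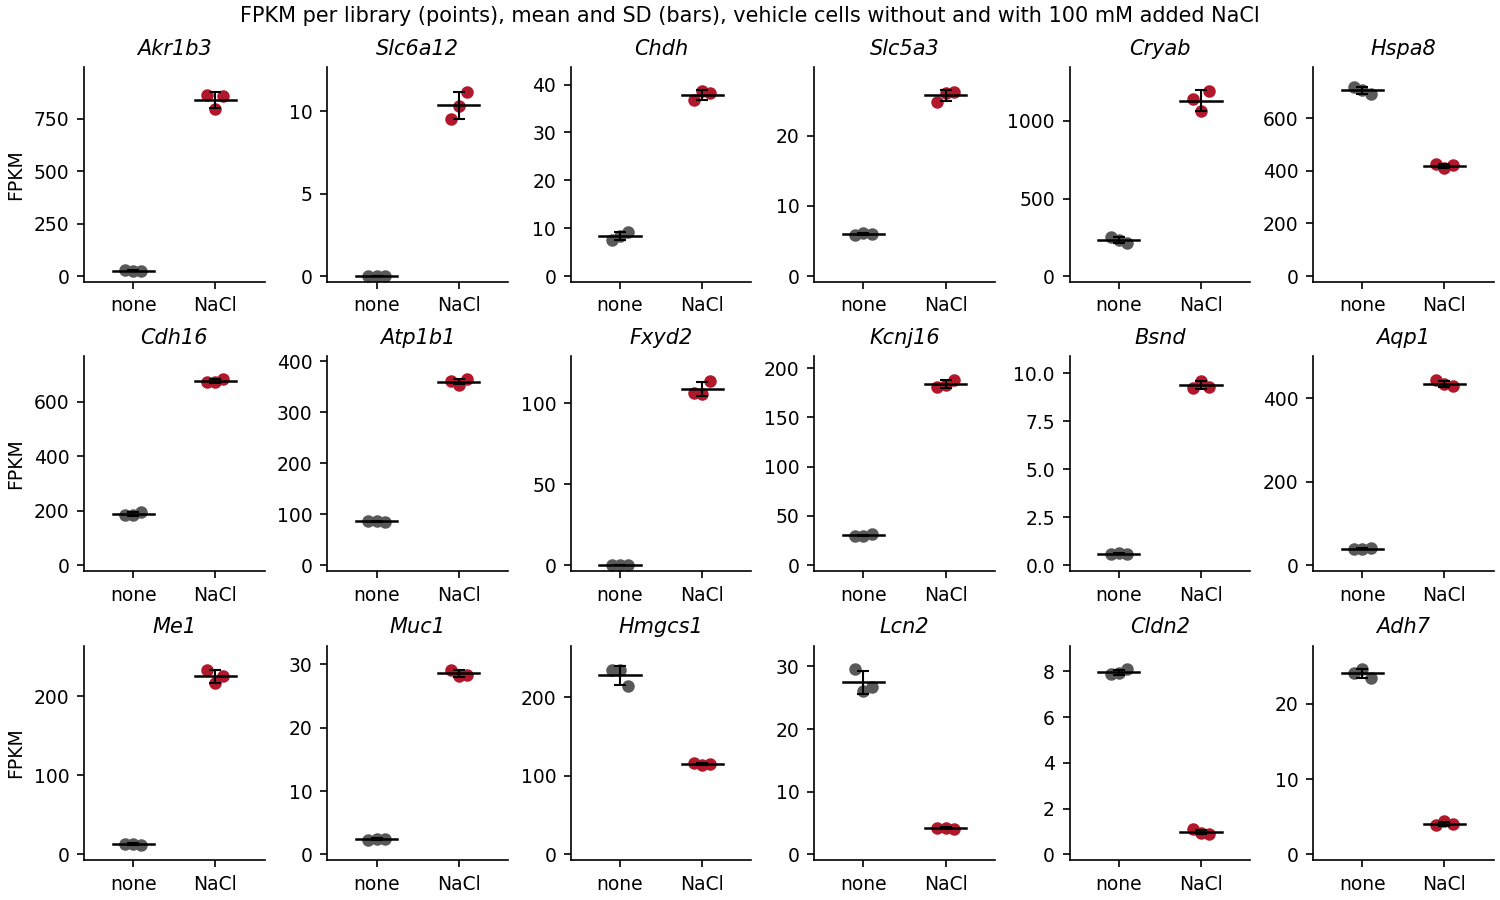
FPKM in each library (points; y axes linear, each starting near 0) with group mean and SD (bars, n = 3) for 18 genes without added NaCl (grey) and with 100 mM added NaCl (red). In each of the 18 panels the groups do not overlap, which held for 67.9% of all genes tested. Genes named for the size of their change had to have such groups, so this was partly set by the choice. Akr1b3 is at 24.2 to 28.0 without NaCl and 795 to 865 with it, while Hspa8, Hmgcs1, Lcn2, Cldn2 and Adh7 are lower with NaCl.

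Genes of NFAT5 and hypertonic signalling had a smaller median change than the osmolyte list (0.63), with members moving both ways and a few large rises. Of 26 tested genes of NFAT5 and hypertonic signalling, 12 were higher and 9 lower, with a median of 0.07. Nfat5 itself was at 28.1, 33.9 and 35.8 FPKM without NaCl and at 49.8, 57.4 and 54.9 with it, a log2 fold change of 0.72 ± 0.165 (limma, adjusted p = 0.0032). Sgk1, a kinase that promotes sodium transport, went from 2.18 to 2.43 FPKM to 30.2 to 32.7 FPKM (3.53). Stk39 (SPAK), a kinase that switches on the sodium, potassium and chloride cotransporters, rose from 2.52 to 10.8 FPKM, and Oxsr1, its relative, by 0.16. Wnk1, the kinase above both, was at 14.9 and 18.7 FPKM and did not pass the test. The p38 kinases diverged: Mapk14 rose by 0.16, Mapk11 was at 11.3 and 11.5 FPKM without passing, and Mapk12 and Mapk13 fell by 0.43 and 1.0 on the log2 scale. Fyn, a tyrosine kinase, fell by 0.72.

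Chaperones divided into an induced and a reduced set. Of 28 tested, 13 were higher and 8 lower, and 6 rose at least 2-fold. Cryab, the small heat shock protein alpha B-crystallin, was at 251, 230 and 216 FPKM without NaCl and at 1139, 1063 and 1194 with it (log2 fold change 2.28 ± 0.0869). No vehicle library came near the NaCl libraries. Hsph1 and Hspa4l, the large nucleotide exchange chaperones, rose from 19.5 to 79.7 and from 11.6 to 47.6 FPKM (2.01 and 1.99). Hspa1a and Hspa1b, the inducible HSP70 genes, each rose by 2.61, as near-identical copies whose reads may be shared. Hspa8, the constitutive HSP70 and the most abundant of them, fell from 691 to 718 FPKM to 410 to 424 FPKM (-0.75). The HSP90 pair also moved apart, Hsp90aa1 by 0.37 and Hsp90ab1 by -0.33 (-0.02 and not called under quantile normalization), and its co-chaperones Fkbp4 and Ahsa1 fell by 0.89 and 0.44. Dnajb1, Hspb1 and Bag3, which heat shock induces, did not pass the test, with log2 fold changes of 0.04, 0.11 and 0.05. Genes of the unfolded protein and ATF4 responses were mixed at 12 higher and 10 lower of 33, with Atf3 and Psat1 higher by 1.25 and 1.22, Stc2 lower at -2.24, and the lumenal chaperone Hspa5 at 113 and 124 FPKM, which did not pass (0.14, and 0.17 and called without vehicle A).

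The beta and gamma subunits of the sodium pump rose. Atp1b1, its main renal beta subunit, was at 87.6, 85.8 and 84.0 FPKM without NaCl and 361, 354 and 365 with it (log2 fold change 2.06 ± 0.0379). Every NaCl library lay above every vehicle library, and groups did not overlap, in either direction, for 67.9% of all genes. Fxyd2, the gamma subunit that tunes the pump in the kidney, had 4 reads over the vehicle libraries and 9412 over the NaCl libraries, a ratio of 2280 with a counting interval of 889 to 8360. In FPKM it went from 0.0365, 0.0707 and 0.0325 to 106, 106 and 114. Atp1b3, another beta subunit, rose from 49.1 to 72.9 FPKM (0.57).

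Of 7 tested potassium channel genes 3 were higher and 2 lower, with a median of 0.10, and 1 was lower without vehicle A, NaCl A or NaCl B and under quantile normalization. Kcnj16 (Kir5.1), an inward rectifier subunit, was at 29.9, 29.8 and 31.2 FPKM without NaCl and 181, 182 and 188 with it (log2 fold change 2.58). Kcnj2 (Kir2.1) rose from 0.844 to 6.47 FPKM (2.37), and Kcnk5, a background potassium channel, by 0.69. Kcnn1 and Kcnk1, another background channel, were lower at -0.38 and -0.15. Bsnd, the barttin subunit that renal ClC-K chloride channels need, went from 0.569, 0.640 and 0.582 FPKM to 9.24, 9.61 and 9.27 (3.17 ± 0.0721). The subunits of the volume-regulated anion channel, which lets chloride and osmolytes out of swollen cells, did not share the rise. Lrrc8a, the subunit without which the channel does not form, was at 2.0 and 1.99 FPKM and did not pass. Its partners Lrrc8b, Lrrc8c, Lrrc8d and Lrrc8e were lower at -0.79, -0.69, -0.21 and -0.26. Across 21 chloride channel genes 7 were higher and 9 lower.

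Cotransporters and exchangers of sodium, potassium and chloride rose in small steps. Of 19 tested, 10 were higher and 2 lower, with a median of 0.15 (8 and 2 without vehicle A, and 1 lower without NaCl A). Slc12a2 (NKCC1), the import route for volume recovery, rose from 23.4 to 26.1 FPKM (log2 fold change 0.15; 0.14 and not called without NaCl C). The largest rise of the list was 1.07 for Slc8b1, the mitochondrial sodium and calcium exchanger. Slc9a3r2, a scaffold for apical exchangers, fell by 0.76. The epithelial sodium channel was low throughout: Scnn1a fell from 0.578 to 0.405 FPKM (-0.25; not called without vehicle B or C or NaCl A, at -0.24 to -0.20), and Scnn1b and Scnn1g stayed under the filter at a mean of 0.00867 and 0.123 FPKM without NaCl. Hsd11b2, which keeps glucocorticoids from the mineralocorticoid receptor, fell from 1.56 to 0.397 FPKM (-1.20). Among corticosteroid targets Dusp1 rose by 2.11 and Per1 by 0.39, Tsc22d3 was at 5.12 and 5.27 FPKM without passing, and Fkbp5 and Klf9 fell by 0.35 and 0.37.

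Water, urea and organic anion transport changed unevenly. Aqp1, a constitutive water channel, was at 39.1, 37.7 and 40.4 FPKM without NaCl and at 442, 433 and 428 with it (log2 fold change 3.46 ± 0.0425). Slc14a2, the urea transporter of the inner medullary duct, fell from 2.23 to 1.69 FPKM (-0.32). Of 20 organic ion, phosphate and sugar transporters 12 were higher and 5 lower, with a median of 0.34. Slc17a1, a phosphate and urate carrier, went from 1.18, 1.05 and 0.997 FPKM to 45.1, 46.1 and 46.3 (4.88 ± 0.0596). Slco4a1, an organic anion transporter, went from 11.6 to 12.3 FPKM to 226 to 234 FPKM (4.23). Slco2a1, the prostaglandin uptake carrier, and Abcc4, an exporter of cAMP and prostaglandins, rose by 1.41 and 1.38. Abcc3, another exporter of conjugates, fell by 0.92. Mir133a-2, a microRNA locus at chr2:180398379-180398482 on the same strand as Slco4a1 and upstream of it, gained reads from 17 to 377 (a ratio of 21.5, counting interval 13.2 to 37.2). Poly(A) libraries do not measure mature microRNAs, so this value counts longer RNA over the locus.

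The carbonic anhydrases Car5b, Car12 and Car2, which interconvert carbon dioxide and bicarbonate, rose by 1.29, 0.90 and 0.58, whereas the subunits of the proton pump were mixed. Atp6v1c1 and Atp6v1a rose by 0.18 and 0.16 (0.15 and 0.16 and not called for Atp6v1c1 without vehicle C or NaCl A), and Atp6v1b2 fell from 25.5 to 18.0 FPKM (-0.49). Calcium-binding S100 proteins also divided. S100g, the intestinal and renal calbindin, had 21 reads without NaCl and 450 with it (a ratio of 20.7, interval 13.4 to 33.8), and S100a4 rose from 0.523 to 3.04 FPKM. S100a14 fell from 25.4 to 7.35 FPKM (-1.72).

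Genes of NF-kB and its chemokine targets were higher. Of 26 tested, 21 were higher and 2 lower, with a median of 0.49. Ccl2, which attracts monocytes, was at 8.09, 7.30 and 6.99 FPKM without NaCl and at 58.3, 49.9 and 59.4 with it (log2 fold change 2.82 ± 0.0773). Ccl5 rose from 10.5 to 40.3 FPKM (1.90), Cxcl1 from 2.63 to 7.01 (1.26) and Cxcl10 from 18.3 to 31.1 (0.76). The feedback inhibitors Nfkbia and Tnfaip3 rose by 0.96 and 0.80, and the subunits Relb and Nfkb2 by 0.57 and 0.53. The 2 lower members, both acute-phase genes, went the other way: Lcn2, a siderophore-binding lipocalin released by injured tubules, went from 29.6, 26.1 and 26.8 FPKM to 4.19, 4.27 and 4.04 (-2.58), and C3 fell from 2.96 to 0.583 FPKM (-1.67). Immune cell markers stayed under the expression filter as given above, and their part in these values was not tested.

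Interferon-stimulated genes rose by less. Of 35 tested, 20 were higher and 1 was lower, with a median of 0.27 (2 lower without vehicle B, mifepristone A, mifepristone C or the mifepristone and NaCl library A). Ifi27 rose from 69.8 to 178 FPKM (log2 fold change 1.35), Ddx58 (RIG-I), a sensor of viral RNA, from 10.2 to 19.7 (0.92) and Ifit2 from 76.4 to 119 (0.63). Isg15 and Bst2, at 50.7 and 125 FPKM without NaCl, did not pass, and Zbp1 was lower at -0.55. In antigen presentation the list was split at 6 higher and 4 lower of 16: Tapbp rose by 0.66, whereas Tap1, Psmb9 and B2m fell by 0.84, 0.74 and 0.44. Prostaglandin genes were higher at 7 of 13, with 4 lower. Ptgs2 (COX-2), a known hypertonic target in the medulla, went from 1.63, 1.65 and 1.5 FPKM to 4.5, 4.79 and 5.42 (1.37), Ptgs1 rose by 0.92, and the receptor gene Ptger4 fell by 0.62. Alox12e, an epidermal lipoxygenase, had 1 read without NaCl and 926 with it, a ratio of 896 with a counting interval of 160 to 35400.

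**Figure D3:**
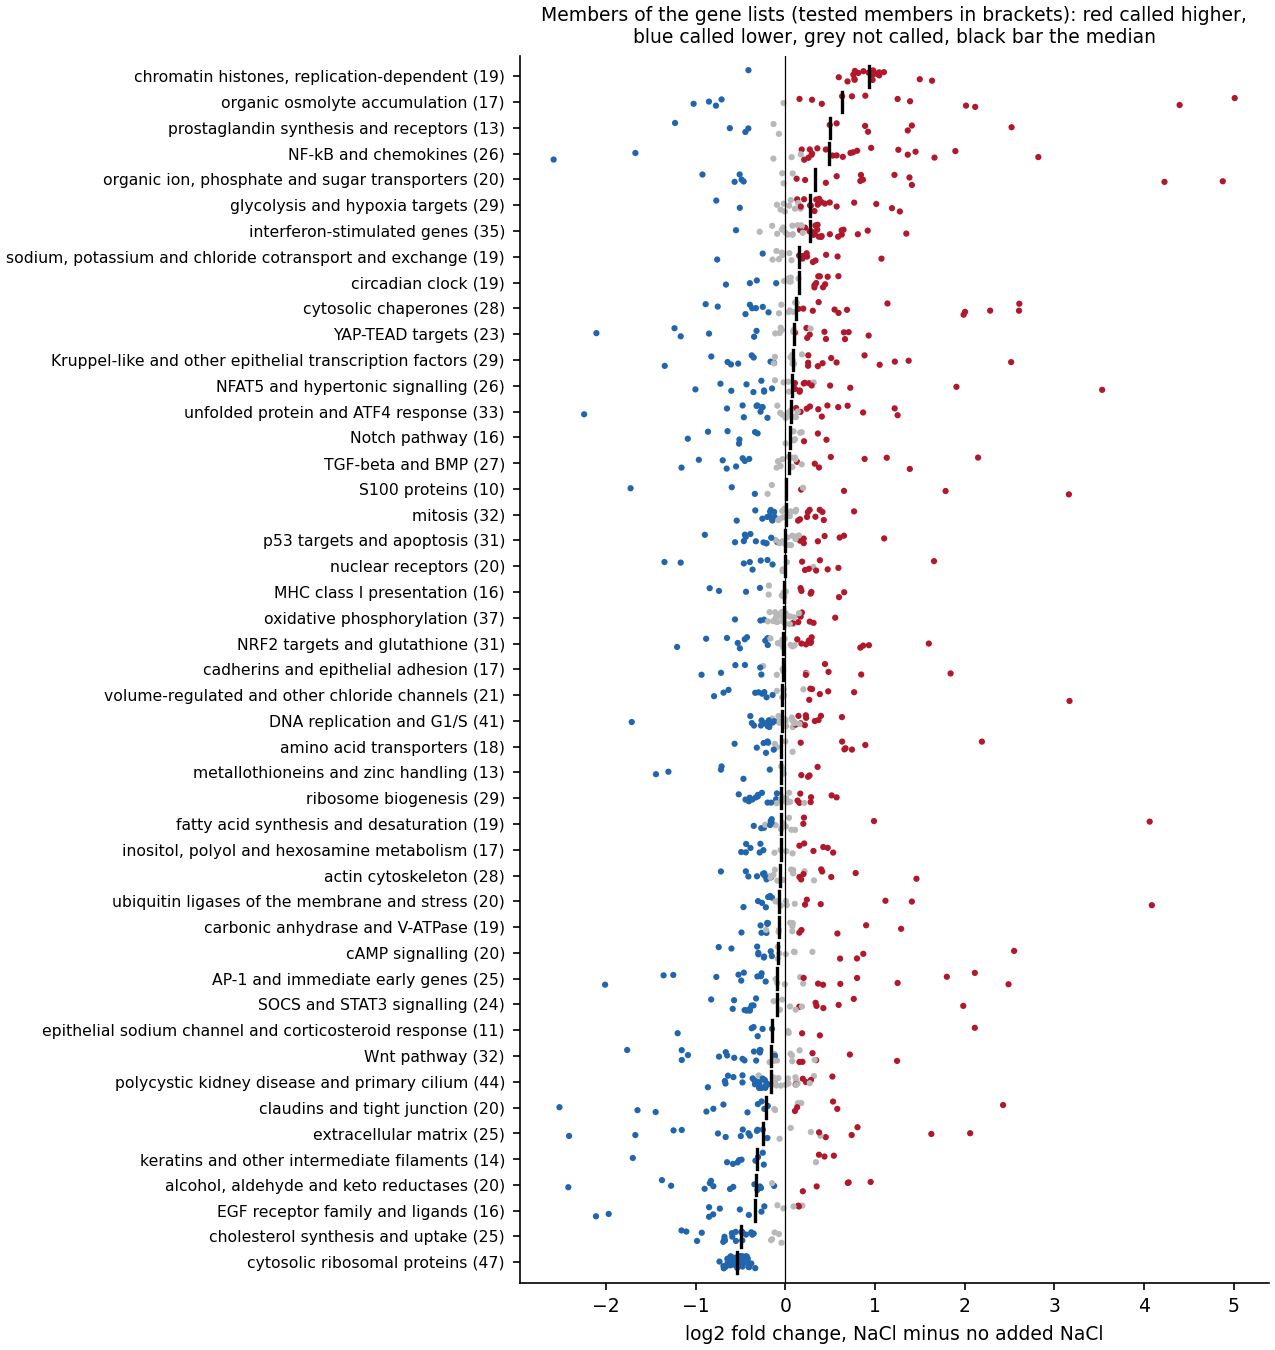
Log2 fold changes with NaCl (x axis) for every tested member of the 47 pathway lists with at least 10 tested members (1 point per gene, red called higher, blue called lower, grey not called; black bars are list medians, ordered from highest to lowest). Histones (0.93) and osmolyte genes (0.63) lie at the top; cholesterol genes (-0.49) and ribosomal proteins (-0.53) lie at the bottom.

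The cholesterol pathway was lower along most of its length. Of 25 tested genes of synthesis and uptake, 0 were higher and 20 were lower, with a median of -0.49. Hmgcs1, which starts the pathway, was at 235, 235 and 214 FPKM without NaCl and 116, 114 and 115 with it (log2 fold change -0.98). Further along it Mvd fell from 38.5 to 19.97 FPKM (-0.93) and Sqle from 59.7 to 36.8 (-0.69). Their shared regulator Srebf2, at 65.5 FPKM without NaCl, did not pass. Fatty acid genes were mixed at 4 higher and 7 lower of 19, with Fasn at 44.9 and 44.1 FPKM, and Scd2 lower at -0.27 (-0.0037 and not called under quantile normalization). Within that list Me1, the malic enzyme that supplies NADPH, was at 13.7, 13.2 and 12.1 FPKM without NaCl and at 234, 217 and 225 with it (4.06 ± 0.0522). No other gene of the list moved by as much as 1 on the log2 scale.

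Glycolytic and hypoxia-responsive genes were higher at 18 of 29 and lower at 2, with a median of 0.28. Hk1 rose from 25.3 to 62.1 FPKM (log2 fold change 1.28) and Hk2, another hexokinase, fell from 11.1 to 6.28 (-0.77). Pfkfb3, which drives glycolytic flux, rose from 0.580 to 1.97 FPKM (1.19), Egln3, an oxygen sensor, by 1.01 and the glucose carrier Slc2a1 by 0.57. Ldha, Gapdh and Tpi1 did not pass, at 0.17, 0.14 and 0.04, and were called higher at 0.44, 0.42 and 0.31 under quantile normalization. Oxidative phosphorylation stayed near the median of all genes, with 7 higher and 3 lower of 37 and a median of -0.02. The higher count was 15 under quantile normalization and 4 without vehicle B or without NaCl A. Cycs, cytochrome c, rose from 38.4 to 56.6 FPKM, and Sdhc fell from 27.4 to 18.4. Mitochondrially encoded mt-Nd1 was among the largest gains in level, from 2741 to 3464 FPKM (0.34).

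Antioxidant and detoxifying enzymes divided. Of 31 NRF2 target and glutathione genes 11 were higher and 10 lower. Nqo1, a quinone reductase, had 11 reads without NaCl and 252 with it (a ratio of 22.2, counting interval 12.2 to 45.0), and Srxn1 and Ephx1 rose by 0.93 and 0.87. Gstm2, a glutathione transferase, went from 49.8, 49.1 and 47.1 FPKM to 20.9, 20.3 and 21.4 (-1.21), and Gsr, glutathione reductase, fell from 79.9 to 43.1 (-0.88). Among 20 alcohol, aldehyde and keto reductases outside the sorbitol route, 5 were higher and 14 lower, with a median of -0.33. Adh7, a retinol and alcohol dehydrogenase, fell from 24.1 to 4.10 FPKM (-2.42) and Akr1c13 from 10.0 to 3.55 (-1.37), while Akr1b8, a relative of aldose reductase, rose by 0.95. The metallothioneins Mt1 and Mt2, which bind zinc and copper, fell from 181 to 66.2 and from 68.9 to 27.6 FPKM (-1.44 and -1.30).

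Transcripts of cytosolic ribosomal proteins were lower as a class. All 47 tested members fell, with a median of -0.53 and a range of -0.73 to -0.33, and 46 of 47 with a median of -0.48 were called without vehicle A. Their summed level was 18525 to 20945 FPKM in the vehicle libraries and 13208 to 13814 FPKM in the NaCl libraries. Rps15 was at 1385, 1244 and 1271 FPKM without NaCl and at 849, 810 and 836 with it (log2 fold change -0.64 ± 0.0907). Rplp0, the stalk protein, was at 1174, 1075 and 1085 and then at 808, 787 and 798 (-0.48). The groups do not overlap for either gene, which held for 67.9% of all genes. Under quantile normalization the median of the cytosolic ribosomal proteins was -0.34, which is over 1.5 times smaller, with 46 called.

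Length and vehicle A are 2 measured features that move with this list. The fold change of all genes correlated with length at a Spearman rho of 0.19 over genes, and the ribosomal protein genes have a median length of 1.73 kb against 3.22 kb over all genes, as implied by reads and FPKM. Oxidative phosphorylation genes have a similar median length of 1.93 kb. By library, the median over ribosomal protein genes relative to the vehicle mean was 0.11, -0.03 and -0.07 in vehicle A, B and C and -0.49, -0.57 and -0.53 in the NaCl libraries. The same median over oxidative phosphorylation genes was 0.10, -0.03 and -0.07 in the vehicle libraries and 0.02, -0.06 and -0.01 in the NaCl libraries. The part of length and of vehicle A in the lower ribosomal values was not tested. Ribosomal proteins have many processed pseudogenes in the genome: 689 of 1593 processed pseudogenes tested were called lower and 171 higher, and how reads were shared between copies is not given in the sources used here.

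**Figure D4:**
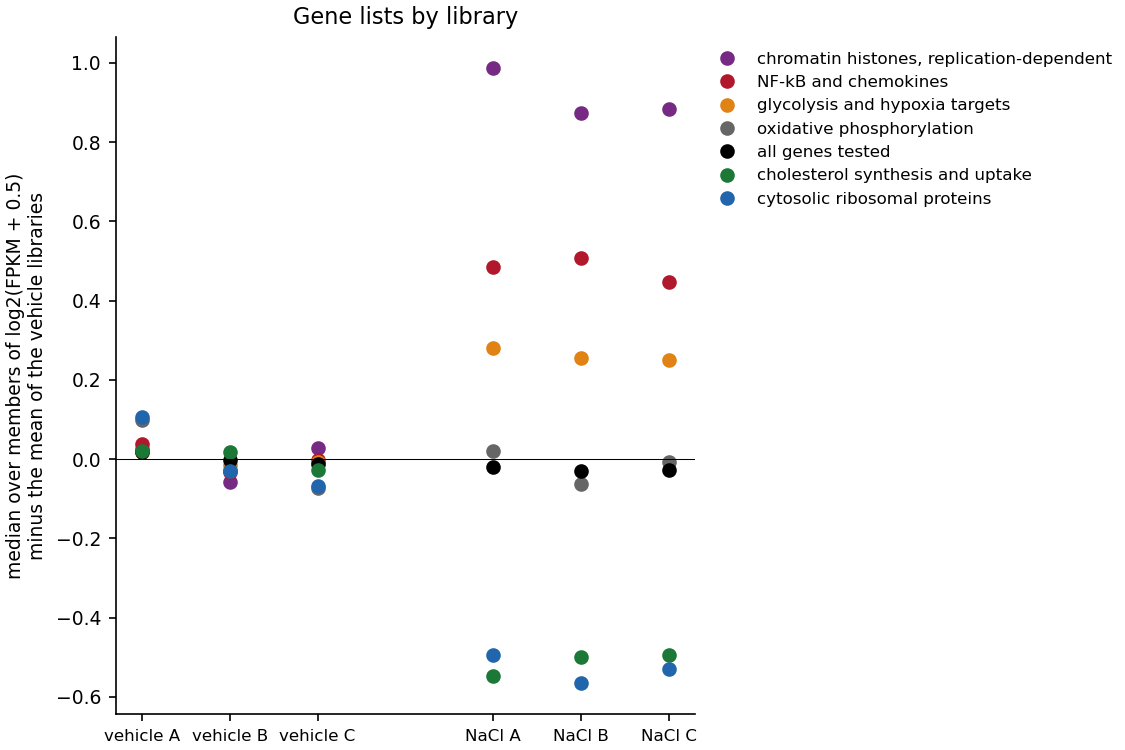
Median over list members of log2(FPKM + 0.5) minus the mean of the 3 vehicle libraries (y axis) in each of the 6 libraries (x axis), for 6 gene lists and for all genes tested. Ribosomal proteins lie at -0.49 to -0.57 in the NaCl libraries while oxidative phosphorylation genes lie at -0.06 to 0.02; the replicate order carries no meaning.

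Other parts of the translation machinery did not follow one direction. Eef1a1, the elongation factor that brings aminoacyl-tRNA to the ribosome, had the largest gain in level of the 10 gains named by size, from 2372, 2223 and 2210 FPKM to 3400, 3187 and 3365 (log2 fold change 0.55). Tpt1, which like ribosomal proteins is translated under mTOR control, fell from 1488 to 1001 FPKM (-0.57). Of 29 ribosome biogenesis genes 7 were higher and 13 lower: Bop1 and Polr1a rose by 0.57 and 0.52, and the nucleolar proteins Npm1, Ncl and Fbl fell by 0.44, 0.41 and 0.40. Without NaCl B, 4 of the 29 were higher.

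The shares of cell cycle genes called were close to those over all genes. Of 41 genes of G1 and DNA replication 10 were higher and 13 lower, and of 32 mitotic genes 10 were higher and 11 lower. Ccnd1 (cyclin D1) stood out, at 1.73, 1.67 and 1.85 FPKM without NaCl and at 0.176, 0.165 and 0.216 with it (log2 fold change -1.71 ± 0.0833). Mki67, a proliferation antigen, was at 74.0, 92.8 and 103 FPKM and then at 139, 160 and 157 (0.77 ± 0.167), and its vehicle libraries were spread more widely than most. Top2a, Cdk1, Pcna and Rrm2 did not pass, and Cdk1 and Rrm2 turn from -0.01 and -0.05 to 0.06 and 0.12 under quantile normalization. Of 31 p53 and apoptosis genes 8 were higher and 11 lower: Plk2 and Mdm2 rose by 1.10 and 0.61, Sesn1 fell by 0.90, and Cdkn1a, the cell cycle inhibitor p21, was at 65.2 and 62.3 FPKM without passing.

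Replication-dependent histone genes were higher in 18 of 19 cases and lower in 1, with a median of 0.93. Hist1h1e, a linker histone, was at 0.679, 0.687 and 0.825 FPKM without NaCl and 3.5, 3.39 and 3.09 with it (log2 fold change 1.64), and Hist1h2bc rose from 20.4 to 41.8 FPKM (1.02). Their main transcripts end without a poly(A) tail, so poly(A) libraries hold a part of them at most, and copies of a histone type share sequence. Hist2h2be was the member that fell (-0.41).

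Epithelial transcription factors changed in both directions. Of 29 tested, 12 were higher and 9 lower. Pax2, a regulator of kidney tubule identity, was at 8.51, 8.31 and 9.69 FPKM without NaCl and 51.3, 53.0 and 54.5 with it (log2 fold change 2.52 ± 0.0721), and its relative Pax8 rose from 27.6 to 57.8 (1.05). Ehf and Klf6 rose by 1.38 and 1.22. The Iroquois factors Irx1 and Irx2 fell from 5.46 to 1.85 and from 3.72 to 1.88 FPKM. Foxj1, which directs motile cilia, fell from 22, 22 and 23 FPKM to 5.98, 5.77 and 5.72 (-1.85). Nr1h4 (FXR), the bile acid receptor, rose from 1.84 to 6.90 FPKM, whereas Rxra fell by 1.17. Clock genes were higher at 9 of 19 and lower at 4, with Nr1d1 and Clock higher by 0.59 and 0.44 and Bhlhe40 lower at -0.66.

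Immediate early genes and MAP kinase feedback genes held large changes both ways. Of 25 tested, 9 were higher and 11 lower. Dusp6, the phosphatase that acts on ERK, was at 15.9, 14.5 and 15.6 FPKM without NaCl and at 87.1, 86.3 and 92.2 with it (log2 fold change 2.49 ± 0.0433), and Dusp1 rose from 7.52 to 34.2 (2.11). Egr1, a serum-response transcription factor, went the other way, from 25.1, 25.5 and 23 FPKM to 6.33, 6.10 and 4.84 (-2.01), with Ier2 and Dusp5 lower at -1.25 and -1.36. Fos and Jund did not pass. In the EGF and FGF receptor list 10 of 16 were lower and 2 higher, with a median of -0.34, and 1 was higher without vehicle C or NaCl C and 4 without mifepristone C. Spry1, a receptor feedback inhibitor, fell from 28.0 to 6.79 FPKM (-1.97), Fgfbp1, an FGF carrier, from 5.64 to 0.921 (-2.11) and Tgfa, an EGF receptor ligand, from 6.62 to 3.45 (-0.85), while Egfr, at 19.4 and 22.2 FPKM, did not pass.

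Other signalling lists held a few large changes. In the Wnt list 16 of 32 were lower and 6 higher: the ligand genes Wnt4 and Wnt10a fell from 3.14 to 0.573 and from 3.59 to 1.34 FPKM, the receptor genes Fzd4 and Fzd2 by 1.16 and 1.08 on the log2 scale, while Ror1, a receptor kinase that binds Wnt ligands, rose most at 1.25 and Wnt7b rose by 0.72. TGF-beta and BMP genes were 8 higher and 8 lower of 27, led by Ltbp1, which stores latent TGF-beta, at 0.183 and 2.53 FPKM (2.15), with Gdf15 higher by 1.13 and Pmepa1 lower at -1.16. Targets of YAP and TEAD were 10 higher and 6 lower of 23, with a median of 0.09. Among them Ctgf and Cyr61 fell by 2.11 and 1.17 on the log2 scale and Dock5 and Crim1 rose by 0.93 and 0.71. Ankrd1 was at 119 and 115 FPKM without passing. Lifr, a cytokine receptor, rose from 2.45 to 11.2 FPKM (1.99). In the cAMP list Prkar2b, a regulatory subunit of protein kinase A, rose from 13.5, 13 and 12.4 FPKM to 80.0, 75.7 and 80.3 (2.55), while Prkar2a fell by 0.74. Agt, the angiotensin precursor, fell from 3.34, 3.37 and 3.48 FPKM to 0.272, 0.353 and 0.358 (-2.24).

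Among junction genes, falls outnumbered rises in the claudin list and not in the cadherin list. Of 20 claudin and tight junction genes 5 were higher and 11 lower, with a median of -0.21. Cldn2, which forms a cation and water pore, went from 7.89, 7.91 and 8.09 FPKM to 1.10, 0.9499 and 0.891 (log2 fold change -2.52), and Cldn8 and Cldn3 fell by 1.65 and 1.45. Cgnl1 (paracingulin) rose from 10.8 to 60.3 FPKM (2.43) and Cldn4, a barrier claudin, from 115 to 166 (0.53). Cadherin and adhesion genes were 6 higher and 6 lower of 17. Cdh16, the kidney-specific cadherin, went from 183, 185 and 195 FPKM to 673, 672 and 684 (1.84), while Cdh1 (E-cadherin) fell from 67.4 to 40.8 FPKM (-0.72) and Epcam from 135 to 91.4 (-0.56). Keratins and other filament genes were lower at 10 of 14 and higher at 3, among them Krt18 at -0.65 and Krt8 at -0.53. Of 28 actin cytoskeleton genes 8 were higher and 9 lower, near the shares over all genes: Actg1 and Actb fell by 0.72 and 0.44, and Fhl2 and Zyx rose by 1.46 and 0.79. Muc1, an apical mucin, went from 2.19, 2.49 and 2.41 FPKM to 29.2, 28.2 and 28.3 (3.34), and Mal, a protein of apical membrane rafts, from 103 to 334 FPKM (1.70).

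Matrix genes were lower at 14 of 25 and higher at 6, with a median of -0.25. The collagen IV chains separated by type. Col4a1 and Col4a2, of the common network, fell from 4.53 to 1.62 and from 6.79 to 1.78 FPKM (log2 fold changes -1.25 and -1.67), and Col4a3 and Col4a5, of the mature renal basement membrane, rose from 11.5 to 36.6 and from 32.2 to 54.1 FPKM (1.63 and 0.74). Timp3, an inhibitor of matrix proteases, rose from 3.08 to 14.5 (2.06). Genes of the primary cilium and of polycystic kidney disease were lower at 22 of 44 and higher at 5, with a median of -0.16 and changes mostly under 1 on the log2 scale. The higher count was 3 without vehicle A, NaCl B or NaCl C and 9 with library quality weights. Mks1, Tmem231 and Bbs5 fell by 0.86, 0.67 and 0.67, Ift80 rose by 0.53, and Pkd1 and Pkhd1 did not pass.

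Among genes outside these groups, Prss35, which encodes an inactive serine protease homologue, had 31 reads without NaCl and 54682 with it, a ratio of 1710 with a counting interval of 1200 to 2510. Ranbp3l, a nuclear export factor for SMAD proteins, went from 0.152, 0.118 and 0.122 FPKM to 34.5, 32.6 and 32.4 (log2 fold change 5.74). Rnf183, a membrane-bound ubiquitin ligase, went from 0.984, 0.821 and 0.891 FPKM to 24.1, 22.3 and 23.4 (4.09). The falls were shallower. The deepest was that of 8430408G22Rik, from 4.40 to 0.0967 FPKM (-3.03). Tspan8, a tetraspanin, fell from 54.1 to 9.97 FPKM (-2.38), Efhd1, a mitochondrial calcium-binding protein, from 12.8 to 2.25 (-2.28), Fmo2, a monooxygenase, from 3.77 to 0.685 (-1.85) and Umod, the thick limb protein uromodulin, from 3.84 to 0.861 (-1.67).

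The authors' deposited table marks genes with a nearby ChIP peak. The mark was on 28.4% of all genes tested, 35.8% of those called higher, 28.4% of those called lower and 24.1% of those not called. It was on 47.7% of genes that rose at least 2-fold and on 51.1% of those that fell at least 2-fold. Of the largest falls named here Cldn2, Adh7, Agt, Ctgf and Spry1 carry it and Lcn2, Fgfbp1 and Fmo2 do not, and of the largest rises Prss35, Slc17a1, Slco4a1, Me1 and Aqp1 carry it and Akr1b3, Fxyd2, Slc6a12 and Sgk1 do not. How near a marked peak lies is not given in the sources used here.

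The same salt step was also given to cells that received mifepristone, and the difference of the 2 effects was tested in the same fit. It was called for 31.1% of all genes. For 32 genes, the 15 largest rises, 14 large falls and Slc5a3, Slc6a6 and Nfat5, the direction was the same in both backgrounds in all 32, and the difference was called for 28. Among these, 12 falls were larger in vehicle cells and 2 smaller, and 9 rises were larger and 5 smaller. Most of the 32 genes were chosen for a large change in vehicle cells, which favours a larger effect there. These counts therefore cannot be read against the 31.1% over all genes. The share of all genes with the same direction in both backgrounds is not given here. Fxyd2 rose by 7.64 in vehicle cells and by 3.40 in mifepristone cells, a difference of 4.25 ± 0.0776 (limma, adjusted p = 2.27e-10). Slc17a1, S100g and Bsnd followed with differences of 2.51, 2.61 and 2.14. Aqp1 and Me1 rose less in vehicle cells, by differences of -1.06 and -0.76. The difference was not called for Akr1b3 (0.24), Rnf183 (0.25), Slc6a6 (-0.25) or Nfat5 (0.19). The Nfat5 difference was 0.41 and called without mifepristone C, and 0.39 and called with library quality weights. That of Rnf183 was called at 0.68 under voom, 0.58 with a pseudocount of 0.1, 0.32 without mifepristone A and 0.23 with library quality weights, and that of Akr1b3 at 0.28 under quantile normalization and with library quality weights. On the log2(FPKM + 0.5) scale a gene near 0 in 1 group has a compressed change there, and the differences for Slc6a12 and Prss35 change sign under voom on recovered reads, as given in the closing section.

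**Figure D5:**
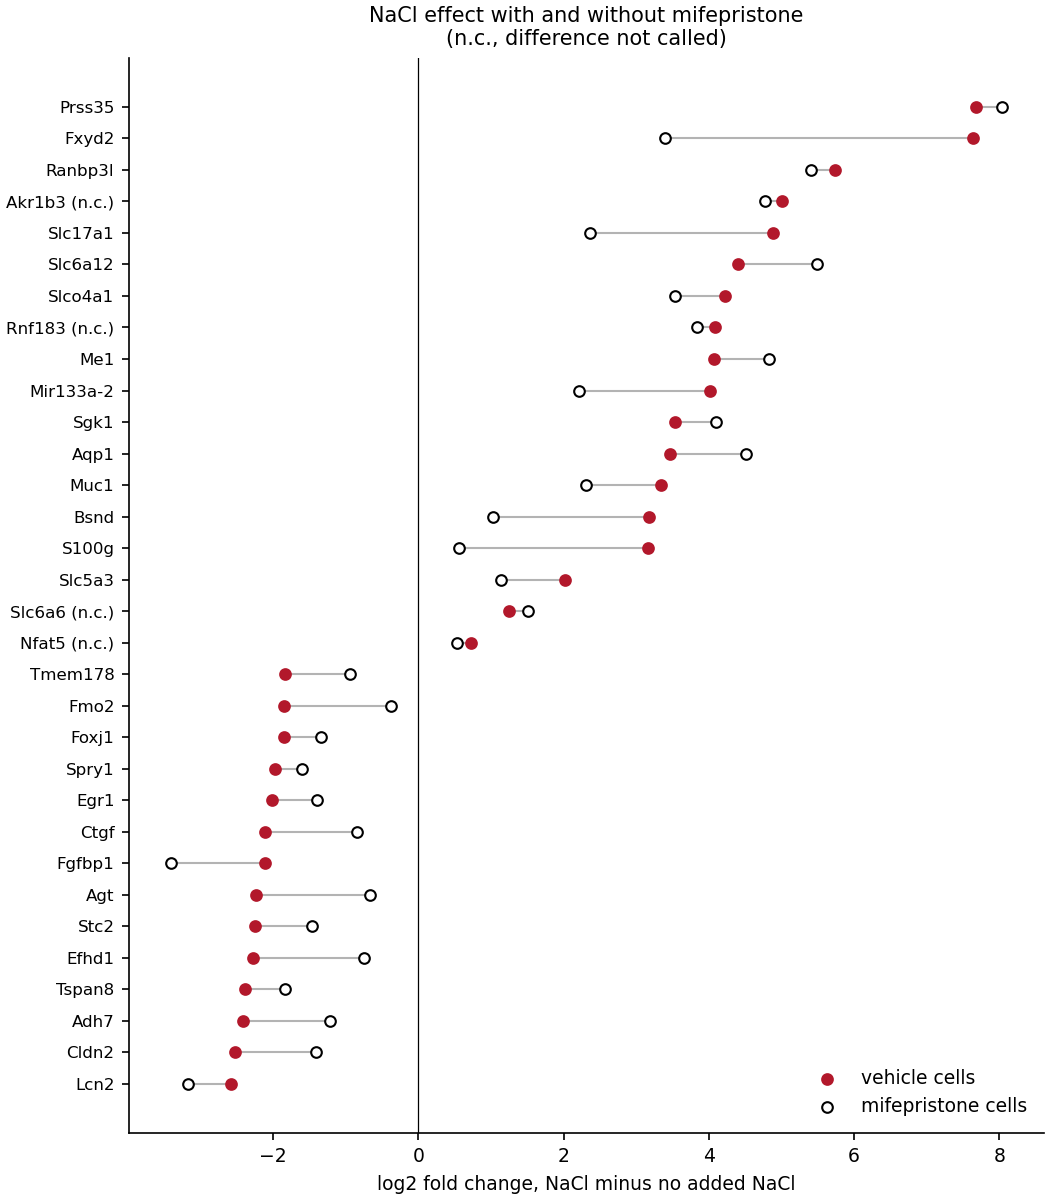
Log2 fold change with NaCl (x axis) in vehicle cells (red) and in mifepristone cells (open circles) for the 32 genes (y axis), ordered by the vehicle value; n.c. marks a difference that was not called. Every pair lies on the same side of 0, and the widest gaps are those of Fxyd2 (7.64 and 3.40), S100g (3.16 and 0.56) and Slc17a1 (4.88 and 2.37).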

How the data were processed

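Poly(A) RNA-seq of 12 IMCD3 libraries was used. Per the file headers the authors deposited FPKM values per gene and library, and the submitters' processing notes name Trimmomatic 0.32, STAR 2.4.2a, SAMtools 1.0, DESeq2 1.12.3 and GRCm38 (mm10), while no counting program, annotation or strand setting is named there. The authors also deposited a mean normalized signal per gene, log2 fold changes with adjusted p-values, and a mark for a nearby peak, per the file headers.

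From these, FPKM and the mean normalized signal were combined to recover reads per gene and library, and 100% of the values above 0 came out whole within 0.05 reads. The recovered totals ran from 41940955 to 49270776 reads. Intervals from reads are exact 95% binomial intervals and cover counting error only. The 12 titles gave the 4 groups of 3, and the columns named for the mutant were taken as the mifepristone libraries.

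Genes that reached 1 FPKM in 3 or more of 12 libraries were tested with limma 3.58.1 (R 4.3.3; trend and robust variance, 4 group means, 8 residual degrees of freedom) on log2(FPKM + 0.5). Benjamini-Hochberg adjustment ran over all 14044 genes, and an adjusted p under 0.05 was called. A fold change on this scale understates the change of low genes. The difference between the effects with and without mifepristone was a contrast of the same fit. Tables and plots were made with Python 3.11.15 and scipy 1.17.1, and the fit was tested on simulated data. Gene positions and classes came from GENCODE M21 by gene identifier, which matched 99.0% of tested genes.

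The gene lists and the genes described were chosen with earlier results of these data known. Genes were named by rule: the 15 largest rises and falls among genes averaging 1 FPKM or more whose groups do not overlap, the 10 largest gains and losses in level, 8 osmotic response genes, members of lists with up to 12 tested, and in longer lists up to 8 called members with the largest change and up to 4 others with the highest level. Clone and Rik names were left out of the ranks by size, and a few genes are not reported here. The following were named after their values were seen: 8430408G22Rik, 1700016C15Rik, Ahsa1, Atp6v1a, Atp6v1c1, Bag3, Cldn4, Col4a5, Cxcl10, Dio1, Fos, Gdpd5, Gm12138, Gm567, Gm6736, Gpcpd1, Gucy2g, Hif1a, Hist2h2be, Hsp90aa1, Hsp90ab1, Impa1, Impa2, Lrrc8d, Lrrc8e, Mapk14, Nfkb2, Nfkbia, Nupr1, Oxsr1, Pkd1, Pkhd1, Relb, Sord and Tnfaip3. Alternatives covered the pseudocount, the filter, scaling, libraries in the fit, a replicate block, library weights, the threshold, voom on recovered reads and leaving out each library. The authors' comparison of mutant and control without NaCl was not used here.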

Additional observations from a re-analysis of the deposited data

Results flagged for a closer look

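For 28 of the 32 genes compared in both backgrounds, the NaCl effect in vehicle cells differed from that in mifepristone cells by the contrast of the limma fit. Values below are the difference in log2 fold change, vehicle minus mifepristone. The contrast was called for 31.1% of all genes. Most of the 32 genes were chosen for a large change in vehicle cells, so the 28 cannot be read against that share.

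Among the rises, the effect was larger in vehicle cells for Fxyd2 (4.25), S100g (2.61), Slc17a1 (2.51), Bsnd (2.14), the Mir133a-2 locus (1.80), Muc1 (1.04), Slc5a3 (0.88), Slco4a1 (0.70) and Ranbp3l (0.33). It was smaller for Slc6a12 (-1.09), Aqp1 (-1.06), Me1 (-0.76), Sgk1 (-0.56) and Prss35 (-0.35). The sign for Slc6a12 and Prss35 depends on the scale. Under voom on recovered reads the difference was 0.19 and not called for Slc6a12, and 1.14 and called for Prss35. S100g rose by 3.16 in vehicle cells and by 0.56 in mifepristone cells, and Bsnd by 3.17 and 1.03. Aqp1 rose by 3.46 and 4.52, and Sgk1 by 3.53 and 4.09.

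Among the falls, a negative difference means a deeper fall in vehicle cells. It was -1.57 for Agt, -1.53 for Efhd1, -1.47 for Fmo2, -1.26 for Ctgf, -1.20 for Adh7, -1.11 for Cldn2, -0.90 for Tmem178, -0.78 for Stc2, -0.62 for Egr1, -0.55 for Tspan8, -0.51 for Foxj1 and -0.37 for Spry1. Fgfbp1 and Lcn2 fell less in vehicle cells, with differences of 1.30 and 0.59. Fgfbp1 fell by 2.11 in vehicle cells and by 3.41 in mifepristone cells, and Agt fell by 2.24 and 0.67.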

How the results depend on the processing

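Each count and each named gene was recomputed under 23 alternatives, 12 of which leave out 1 library. Of 241 genes named, 213 kept their side of the threshold, and if called their direction, under each alternative that tested them. Direction was not compared for a gene called in neither fit. Genes averaging under 5 FPKM were not in the fit with that filter. Genes called with NaCl ranged from 6939 to 8975 with 1 library left out, those at least 2-fold higher from 375 to 408 and those at least 2-fold lower from 175 to 188. The 7965 genes called in the main fit became 11394 with library quality weights and 6104 at an adjusted p under 0.01. Requiring a mean FPKM of at least 5 lowered the 384 genes at least 2-fold higher to 219 and the 180 at least 2-fold lower to 85. The latter count was 306 with a pseudocount of 0.1, 115 with a pseudocount of 1 and 359 with voom on recovered reads. The 4374 genes whose effect differed from mifepristone cells became 2807 with the mean FPKM of at least 5, 7156 with library quality weights and 2618 at an adjusted p under 0.01, and ran from 3512 to 6784 with 1 library left out, the highest without mifepristone C. The cause was not tested, apart from the fewer genes under the stricter filter and threshold. Under quantile normalization Cdk1 and Rrm2 turned to 0.063 and 0.12. The difference between backgrounds turned to 0.25 (pseudocount 0.1) and 1.14 (voom) for Prss35 and to 0.19 (voom) for Slc6a12. Those for Cldn2, Foxj1, Ranbp3l and Tspan8 were no longer called under voom. Median-ratio scaling moved the median of all genes by 0.03 and quantile normalization by 0.01. Of 2346 list counts 90 moved by over 1.5 times. With a replicate block on the letters, 7479 genes were called in vehicle cells and 3724 for the difference between backgrounds. Same-letter libraries had deviation correlations of 0.27, 0.08 and 0.05, and vehicle C correlated best with NaCl B at 0.21, so the letters are treated as names only. At 43440230 to 48176990 reads, genes with fewer than about 3 reads in a library are at the limit of detection.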
